A study of Mus musculus with 24 samples.

Results

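The 37 genes described here encode the proteins of meiotic chromosome structure and recombination: the meiotic cohesins, the chromosome axis, the synaptonemal complex, the factors that make, exchange and resolve DNA breaks, the attachment of telomeres to the nuclear envelope, and 2 regulators of meiotic RNA. They were chosen by gene name and known function, as meiotic genes expressed early in spermatogonia. Of the 37, 33 were found under their gene name in both expression tables, among 23177 and 21688 listed genes, and all 33 passed the filter on low values. The other 4 (Terb1, Terb2, Majin and Meioc) are listed under older names, were found by Ensembl identifier, and are given separately from every count over the 33.

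RNA was sequenced from sorted spermatogonia of mice at postnatal day 7, in 24 libraries that form 8 groups of 3. Undifferentiated spermatogonia (THY1+ uSPG) and differentiating ones (KIT+ dSPG) were taken with antibody-coated magnetic beads from testes digested with trypsin, and each isolation pooled 3 mice. The Zbtb16 set holds wild-type (WT) littermates and Zbtb16 null mice, which carry the luxoid mutation on both alleles (Zbtb16 lu/lu, C57BL/6J background) in every cell of the body and not only in germ cells. The Sox3 set holds WT controls and conditional knockouts (cKO), in which a floxed Sox3 is removed by Cre expressed from Ddx4 in germ cells.  Values are FPKM, reads scaled to the length of the transcript and to the mapped total of the library, so that levels of different genes are per length.

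Meiosis turns a diploid germ cell into haploid gametes. Homologous chromosomes are organised along a protein axis built on cohesin, broken on purpose by SPO11, paired through repair of those breaks, and held together along their length by the synaptonemal complex until crossovers are in place. In male mice these events take place in spermatocytes, which arise from differentiating spermatogonia. Several genes of the machinery are known to be transcribed already in spermatogonia.

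The targeted genes and sorting markers were read first. Zbtb16 was at 55.8, 58.7 and 41.97 FPKM in WT THY1+ uSPG and at 17.5, 18.2 and 15.6 in null THY1+ uSPG, so Zbtb16 transcript was lower but still detected. Sox3 was at 0, 0 and 0.0434 FPKM in cKO THY1+ uSPG and at 0, 0.082 and 0.041 in cKO KIT+ dSPG. Among the Sox3 WT libraries, those labelled THY1+ had 0.253, 0.254 and 0.213 FPKM of Thy1 and those labelled KIT+ had 3.84, 3.59 and 4.06. Kit ran the other way, at 48.2, 45.6 and 80.1 against 12.97, 14.04 and 18.8. The sorting markers of these 6 WT libraries thus go against their labels. They were not regrouped, and are called "labelled THY1+" and "labelled KIT+" below. The estimated depth was 25.93 to 35.18 M reads in the Zbtb16 table and 10.99 to 31.85 M reads in the Sox3 table, where replicate 1 of each group was the deepest. The lowest estimate for any of the 37 genes in any library was 12.7 reads (Meiob, Sox3 table), which sets the counting error of the lowest values, and floors of this kind cover counting error only.

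The list was chosen for expression early in spermatogonia, so the levels below describe its members and do not test that expression. In the Zbtb16 table, WT THY1+ uSPG had 32 of the 33 at a mean of at least 1 FPKM, 21 at 10 FPKM or more and 7 at 50 FPKM or more. In WT KIT+ dSPG the counts were 32, 19 and 9. Together the 33 summed to between 785.9 and 956.7 FPKM per library in WT THY1+ uSPG and between 860.2 and 1345 in WT KIT+ dSPG. Genes of late spermatocytes and spermatids, taken from a list of 20 of which 17 are in this table, summed to between 62.4 and 77.7 FPKM in WT THY1+ uSPG and between 66.4 and 86.5 in WT KIT+ dSPG.

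**Figure D1:**
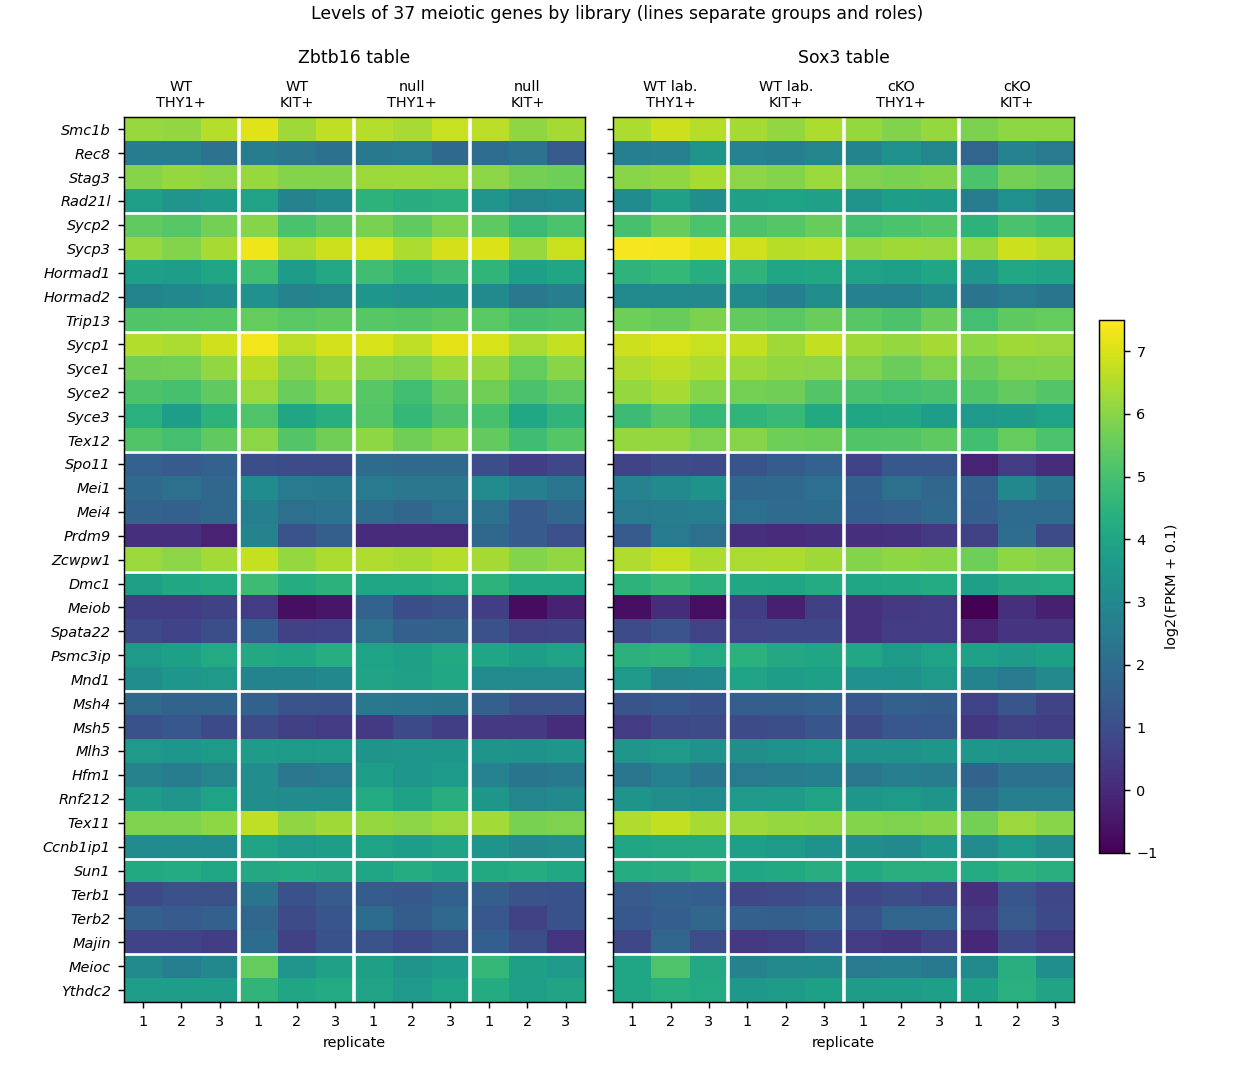
Level of each of the 37 genes (rows, ordered by role) in each of the 24 libraries (columns, 3 replicates per group), as log2(FPKM + 0.1) on the colour scale. Sycp1, Smc1b, Zcwpw1, Tex11 and Sycp3 are bright in every library, while Meiob, Prdm9, Msh5 and Majin are dark.

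Structural genes were among those with the highest levels. Sycp1, the transverse filament of the synaptonemal complex, was at 92.6, 88.3 and 118 FPKM in WT THY1+ uSPG and at 158, 97.2 and 122 in WT KIT+ dSPG. Smc1b, a cohesin subunit made in germ cells, was at 72.7, 69.8 and 93.2 and 139, 77.95 and 102, and Sycp3, which forms the axis with SYCP2, at 73.2, 59.9 and 83.7 and 157, 87.1 and 115. For each of these genes the highest WT KIT+ library was replicate 1, and for Sycp1 and Smc1b the fractions overlapped while for Sycp3 they did not. Stag3, the subunit shared by the meiotic cohesin complexes, had a mean of 65.7 ± 4.67 FPKM (SD, n = 3) in WT THY1+ uSPG, while its kleisin partners Rad21l and Rec8 were lower, at 12.4 ± 1.5 and 5.47 ± 0.724. The central element genes Syce1, Tex12, Syce2 and Syce3 followed at 56.8 ± 10.6, 37.3 ± 5.47, 36.7 ± 5.72 and 18.9 ± 4.89 FPKM.

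Among the recombination genes the levels ran from abundant to scarce. Zcwpw1, a reader of the histone marks that PRDM9 sets, had a mean of 73.05 ± 7.15 FPKM in WT THY1+ uSPG, and Tex11, an X-linked crossover factor, 60.9 ± 5.296. Prdm9 itself, the methyltransferase that places recombination hotspots, was at 1.002, 0.997 and 0.807 FPKM in the 3 WT THY1+ libraries, the lowest mean of the 33. Spo11, which makes the breaks, had a mean of 2.93 ± 0.269 FPKM, and the strand exchange gene Dmc1 16.6 ± 2.26. Meiob and Spata22, whose products form a complex on single-stranded DNA, had means of 1.398 ± 0.0575 and 1.74 ± 0.209 FPKM.

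Of the 33 genes, 7 were called in the null comparison of THY1+ uSPG or in the averaged Sox3 comparison below, and promoters are shown for the 5 of them with a single start in the RefSeq promoter table (GRCm38.p6): Hfm1 and Ccnb1ip1 from the former, and Tex12, Sycp3 and Spata22 from the latter. Syce2 and Syce3 have 2 starts each and are not printed. Each runs 5′ to 3′ from 250 bases before to 50 bases after the RefSeq start. Capitals mark matches on either strand to 3 motifs: CACGTG (the E-box bound by MAX and MGA), TCCCGC (the core of an E2F site) and CNCCTCAG (the site described for STRA8 and MEIOSIN). No match overlaps another in these 5.
Hfm1 (chr5:106925841-106926140, minus strand): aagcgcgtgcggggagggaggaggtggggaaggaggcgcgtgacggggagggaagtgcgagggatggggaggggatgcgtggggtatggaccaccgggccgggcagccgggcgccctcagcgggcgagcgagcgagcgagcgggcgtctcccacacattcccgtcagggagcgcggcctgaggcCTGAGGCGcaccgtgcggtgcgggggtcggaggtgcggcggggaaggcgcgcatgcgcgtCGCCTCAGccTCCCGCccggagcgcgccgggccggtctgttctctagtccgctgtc
Ccnb1ip1 (chr14:50795679-50795978, minus strand): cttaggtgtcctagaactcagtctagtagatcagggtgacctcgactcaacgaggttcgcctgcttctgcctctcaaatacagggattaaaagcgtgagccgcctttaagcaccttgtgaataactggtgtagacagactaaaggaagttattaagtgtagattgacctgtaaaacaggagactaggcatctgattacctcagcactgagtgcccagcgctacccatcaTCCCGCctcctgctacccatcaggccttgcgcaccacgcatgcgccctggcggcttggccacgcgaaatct
Tex12 (chr9:50561219-50561518, minus strand): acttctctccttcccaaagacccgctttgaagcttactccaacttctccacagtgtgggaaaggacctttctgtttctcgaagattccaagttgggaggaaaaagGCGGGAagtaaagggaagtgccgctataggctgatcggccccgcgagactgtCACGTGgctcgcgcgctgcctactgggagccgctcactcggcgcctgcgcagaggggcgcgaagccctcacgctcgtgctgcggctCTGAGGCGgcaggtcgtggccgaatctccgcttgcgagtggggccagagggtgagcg
Sycp3 (chr10:88459337-88459636, plus strand): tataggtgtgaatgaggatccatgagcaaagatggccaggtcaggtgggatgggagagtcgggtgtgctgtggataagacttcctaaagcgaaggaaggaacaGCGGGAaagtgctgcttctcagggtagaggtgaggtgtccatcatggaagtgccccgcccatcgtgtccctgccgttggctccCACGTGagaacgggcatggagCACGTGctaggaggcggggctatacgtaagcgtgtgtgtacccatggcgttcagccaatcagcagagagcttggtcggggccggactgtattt
Spata22 (chr11:73329491-73329790, plus strand): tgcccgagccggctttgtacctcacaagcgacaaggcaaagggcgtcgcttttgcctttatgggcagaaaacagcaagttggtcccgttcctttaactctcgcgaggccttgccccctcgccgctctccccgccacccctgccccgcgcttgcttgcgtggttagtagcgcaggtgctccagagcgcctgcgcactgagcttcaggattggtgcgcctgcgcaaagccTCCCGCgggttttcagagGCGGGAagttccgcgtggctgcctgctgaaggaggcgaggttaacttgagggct

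The matches differ between these promoters. Hfm1 holds CNCCTCAG at both -66 and -6 from the start and TCCCGC at 5, where the start is 1. Ccnb1ip1 holds TCCCGC alone, at -21, and Spata22 holds it at -22 and -4. Tex12 holds all 3 motifs, at -93 (CACGTG), -145 (TCCCGC) and -7 (CNCCTCAG), and Sycp3 holds CACGTG at -64 and -43 and TCCCGC at -147. Positions give the first base of the match.

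The table held 38 promoters for 31 of the 37 genes. TCCCGC was in 23 of the 38 (60.5%) and in 20.0% of the 32851 promoters of the same length. CACGTG was in 8 (21.1%) against 7.15%, and CNCCTCAG in 8 (21.1%) against 7.94%. Of the 31 genes, 3 held all 3 motifs (Tex12, Sycp1 and, at its second start, Syce2), 8 held 2, 10 held 1 and 10 held none, Syce3 among them. A match describes these letters and is not a bound site.

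Loss of Zbtb16 was compared in THY1+ uSPG, the fraction in which Zbtb16 is highest, and 2 crossover genes were higher in null cells. Ccnb1ip1 (ENSMUSG00000071470, GRCm38 chr14:50789248-50807732), which encodes the crossover factor HEI10, rose 1.69-fold, and Hfm1 (ENSMUSG00000043410, chr5:106840192-106926321), a helicase needed for crossovers, rose 1.82-fold. No gene of the 33 fell past the threshold. The 2 that rose are 2 of 33, beside 2.71% of the 22374 genes tested that were called higher. A call needs an adjusted p of at most 0.05 (limma on log2(FPKM + 0.1), Benjamini-Hochberg over all genes tested, two-sided) and a change of at least 1.5-fold.

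Ccnb1ip1 was at 8.48, 8.61 and 8.65 FPKM in WT THY1+ uSPG and at 15.1, 13.2 and 15.5 in null, and its log2 fold change was 0.76 ± 0.13 (SE; adjusted p = 0.0076). All 3 null libraries lay above all 3 WT libraries. Hfm1 was at 6.86, 5.95 and 7.14 FPKM in WT and 13.6, 10.9 and 12.2 in null, again without overlap, with a log2 fold change of 0.87 ± 0.20 (adjusted p = 0.031). The Hfm1 call was lost in 5 of the 6 fits that each left out 1 library of the contrast, and kept without null THY1+ replicate 2, with log2 fold changes of 0.79 to 0.95 and adjusted p from 0.045 to 0.13, while the Ccnb1ip1 call was kept in all 6. Mnd1, the partner of PSMC3IP in strand invasion, passed the adjusted p (0.013) at 9.16, 10.97 and 11.7 FPKM in WT and 15.4, 14.5 and 16.6 in null, but its 1.47-fold difference is under 1.5.

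Most genes lay above 0, although few passed the test. Of the 33, 29 had a log2 fold change above 0, and the median was 0.29, against -0.027 over all genes tested. In 16 of the 33 every null THY1+ library lay above every WT THY1+ library, beside 15.5% of all genes tested. In 1 (Msh5) every null library lay below, beside 14.1%. The median by role was 0.39 for the 5 axis genes, 0.32 for the 5 genes of the central region and 0.55 for the 5 of strand exchange. It was 0.44 for the 7 of crossover formation, 0.28 for the 5 grouped under break formation, Zcwpw1 among them, and 0.25 for the 4 cohesins. Sun1, the gene of telomere attachment found by name, was at -0.032, and Ythdc2, of meiotic RNA regulation, at 0.060. In this fit only genes of crossover formation passed the test. Fitted on the libraries of this contrast alone, Hormad1, Rad21l and Spata22 were called higher too, beside 2.05% of all genes tested called higher.

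Several genes with differences above 1.5-fold missed the adjusted p. Spata22 was at 1.75, 1.52 and 1.94 FPKM in WT and 4.27, 2.94 and 3.13 in null, a log2 fold change of 0.94 ± 0.24 (adjusted p = 0.051). Hormad1, which marks unsynapsed axes, was at 13.8, 13.3 and 16.02 and 29.7, 23.7 and 28.6, with 0.92 ± 0.27 (adjusted p = 0.073). For both genes the groups did not overlap. Rad21l (0.78 ± 0.24), Syce3 (0.80 ± 0.32), Tex12 (0.66 ± 0.21) and Sycp3 (0.64 ± 0.26) were of like size, with adjusted p from 0.085 to 0.16. At the other end, Dmc1 (0.0079 ± 0.17), Prdm9 (0.0055 ± 0.35), Syce2 (0.037 ± 0.21) and Trip13 (0.06 ± 0.089), the ATPase that strips HORMA proteins from axes, lay near 0. Msh5, whose product forms a clamp on DNA with MSH4, was at 2.08, 2.35 and 1.78 FPKM in WT and 1.26, 1.78 and 1.39 in null (-0.47 ± 0.19, adjusted p = 0.16), while its partner Msh4 was at 3.76, 3.15 and 3.21 and 5.25, 4.98 and 4.797 (0.56 ± 0.17, adjusted p = 0.085). Of the genes found by identifier, Meioc (0.73 ± 0.44), Terb1 (0.45 ± 0.25), Majin (0.40 ± 0.34) and Terb2 (0.27 ± 0.24) were no calls.

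Markers of other cells moved in the opposite direction in this comparison. The macrophage list was lower in null for 11 of 11 genes (median log2 fold change -0.76), and its sum was 979.5 to 1149 FPKM in WT THY1+ uSPG and 450 to 877 in null THY1+ uSPG. The Leydig cell list was lower for 8 of 8 (median -0.84). A list of germ cell genes, which holds Ddx4 and also Nanos2, a marker of undifferentiated spermatogonia, was higher for 11 of 11. Its median was 0.30, with 1 call (Ddx25), and its sum was 1149 to 1324 FPKM in WT and 1335 to 1637 in null. A list of differentiating spermatogonia summed to 221.4 to 246.8 FPKM in WT and 199.3 to 219.9 in null. One of undifferentiated spermatogonia, which holds Zbtb16 itself, summed to 262.5 to 311 and 227.6 to 288.1. The medians of their genes' means were 16.57 and 16.94 FPKM for the former and 13.91 and 16.83 for the latter. In sorted bulk samples fewer cells of a type and less RNA per cell cannot be told apart, and the part of these lists in the result was not tested. On a scale on which the mean of the 11 germ cell genes is equal in every library, the median of the 33 was -0.021 and that of all genes -0.34, and Ccnb1ip1 and Hfm1 were no calls. There none of the 33 was higher and 1 (Msh5) was called lower, beside 11.5% of all genes tested called lower.

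**Figure D2:**
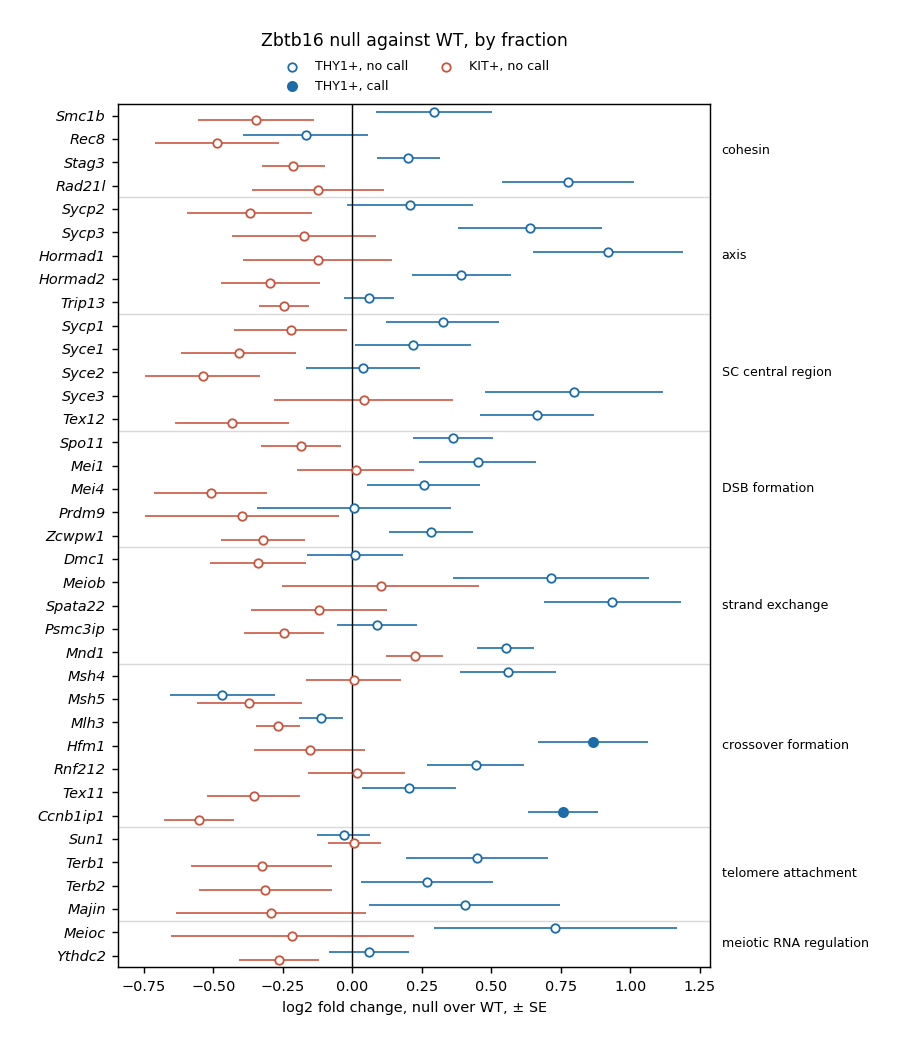
Log2 fold change of each of the 37 genes in Zbtb16 null over WT (x axis, bars are SE of the fit, 3 libraries per group), in THY1+ uSPG (blue) and KIT+ dSPG (red). Filled points are calls: Hfm1 and Ccnb1ip1 in THY1+ uSPG, none in KIT+ dSPG. Most blue points lie right of 0 and most red points left of it.

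In KIT+ dSPG none of the 33 passed the test, beside 0.259% of all genes tested that were called either way by limma. At an unadjusted p under 0.05 there were 6 (18.2%), close to the 17.3% of all genes tested. The median log2 fold change was -0.25, against 0.0063 over all genes, and 26 of the 33 lay below 0. Ccnb1ip1 was at 15.3, 11.8 and 13.2 FPKM in WT KIT+ dSPG and 10.6, 7.84 and 9.07 in null (-0.55 ± 0.13, adjusted p = 0.13). It was 1 of 3 genes, with Mlh3 and Msh5, in which every null library lay below every WT library, beside 8.77% of all genes tested. Mlh3, the MutL partner at crossovers, was at 12.6, 12.4 and 12.8 FPKM in WT and 10.4, 10.1 and 10.8 in null, a small and even step (-0.27 ± 0.079, adjusted p = 0.18). The Leydig cell list was higher in null KIT+ dSPG for 8 of 8 genes (median 0.53), its sum being 1308 to 2476 FPKM in WT and 2197 to 3387 in null, and germ cell genes were lower for 9 of 11 (median -0.20). The part of these lists in the result was not tested.

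The effect of the null genotype was then compared between the fractions, as the change in KIT+ dSPG less the change in THY1+ uSPG. For Ccnb1ip1 the difference was -1.31 ± 0.18 on the log2 scale (adjusted p = 0.041), the only call among the 33, beside 0.0313% of all genes tested that were called either way. The call was lost on leaving out any of 11 of the 12 libraries, and kept without null KIT+ replicate 1, with values of -1.42 to -1.21 and adjusted p from 0.037 to 0.17. The median over the 33 was -0.56, against 0.0039 over all genes, with 31 of 33 below 0 and 16 at an unadjusted p under 0.05 (48.5%, beside 22.4% of all genes). Tex12 (-1.10 ± 0.29), Spata22 (-1.05 ± 0.35), Hormad1 (-1.04 ± 0.38) and Hfm1 (-1.02 ± 0.28) came next in size and were no calls. The germ cell list had a median of -0.48 and the Leydig cell list of 1.33.

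The 2 fractions were next compared within each genotype. In WT, KIT+ dSPG had 5 of the 33 genes called higher and 1 called lower than THY1+ uSPG, beside 7.21% of all genes tested called higher and 14.0% called lower. Genes of break formation made up 4 of the 6. Prdm9 was at 1.002, 0.997 and 0.807 FPKM in THY1+ uSPG and 6.94, 2.16 and 2.88 in KIT+ dSPG, a log2 fold change of 1.81 ± 0.35 (adjusted p = 0.0027). Mei1 (0.74 ± 0.21) and Mei4 (0.61 ± 0.20), which act with SPO11, and Syce2 (0.73 ± 0.21) and Ccnb1ip1 (0.63 ± 0.13) also rose, with adjusted p from 0.0033 to 0.042. Spo11 fell, from 3.07, 2.62 and 3.11 FPKM to 1.97, 1.87 and 1.84 (-0.60 ± 0.14, adjusted p = 0.0089). The groups of each of these genes did not overlap. Over the 33, KIT+ lay wholly above THY1+ in 10 and wholly below in 5, beside 18.5% and 24.1% of all genes tested. The Prdm9 call was kept in all 6 fits that each left out 1 library. Mei4 was lost in 5 (kept without WT KIT+ replicate 2) and Syce2 in 4 (kept without that library or WT THY1+ replicate 3). Mei1 was lost without WT THY1+ replicate 1 or 3 or WT KIT+ replicate 1, Spo11 without WT THY1+ replicate 1 or 3 or WT KIT+ replicate 3, and Ccnb1ip1 without WT KIT+ replicate 1. With germ cell genes held equal, 12 of the 33 were called higher and none lower, beside 15.4% and 8.62% of all genes tested. With Nanos2 left out of the germ cell mean, 6 were higher and none lower, beside 7.05% and 11.6%. With each library's median held equal, 6 were higher, beside 9.37%, and none lower. The fall of Spo11 was no call on any of these scales.

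Meioc, whose product is needed for germ cells to hold meiotic prophase, was at 8.23, 6.26 and 7.78 FPKM in WT THY1+ uSPG and 44.4, 10.6 and 14.3 in WT KIT+ dSPG, and was called higher (1.35 ± 0.44, adjusted p = 0.038). Ythdc2, an RNA helicase that binds MEIOC, was at 13.1, 13.4 and 13.5 and 23.4, 16.4 and 18.1, a 1.43-fold difference with an adjusted p of 0.02. In both genes WT KIT+ replicate 1 was the highest library, as it was in 29 of the 33 genes. That library had 1308 FPKM of the Leydig cell list, against 2139 and 2476 in the other WT KIT+ libraries. Without it 1 gene of the 33 was called higher (Prdm9) and 4 were called lower, and the Meioc call was lost, with a log2 fold change of 0.73. The Meioc call was lost without each WT THY1+ library too. Without WT KIT+ replicate 2, 10 of the 33 were called higher and 1 lower. In all, 3 were called without WT KIT+ replicate 3, WT THY1+ replicate 1 or WT THY1+ replicate 3. The share of all genes tested is not given for these fits, so their counts describe the 33 alone. The KIT+ sort held 1308 to 2476 FPKM of the Leydig cell list and the THY1+ sort 93.7 to 134.5, while the macrophage list was at 6.84 to 8.24 FPKM in KIT+ and 979.5 to 1149 in THY1+. The part of these cells in the result was not tested.

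In null mice more of the genes fell from THY1+ uSPG to KIT+ dSPG: 11 of the 33 were called lower and 1 higher, beside 16.0% and 13.2% of all genes tested. The median was -0.34. Crossover genes gave 4 of the 11, namely Hfm1 (-1.11 ± 0.20), Msh4 (-1.03 ± 0.17), Rnf212 (-0.98 ± 0.17) and Ccnb1ip1 (-0.68 ± 0.13). Strand exchange gave 3, namely Meiob (-1.41 ± 0.35), Spata22 (-0.96 ± 0.24) and Mnd1 (-0.86 ± 0.10). The others were Rad21l (-1.27 ± 0.24), Spo11 (-1.15 ± 0.14), Hormad2 (-0.68 ± 0.18) and Tex12 (-0.67 ± 0.21), and Terb2, found by identifier, was called lower too (-0.78 ± 0.24). The Tex12 and Terb2 calls were lost without null THY1+ replicate 1 or 3 or null KIT+ replicate 2, and the Hormad2 and Ccnb1ip1 calls without null KIT+ replicate 2.

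Among these, Spo11 was at 3.95, 3.72 and 3.702 FPKM in null THY1+ uSPG and 1.97, 1.39 and 1.64 in null KIT+ dSPG, and Rad21l at 22.6, 19.4 and 21.5 and 10.6, 7.31 and 8.37. In both the fractions stood clear of each other. Prdm9 was the gene called higher, at 0.948, 0.961 and 0.898 and 3.56, 2.604 and 2.003 (1.41 ± 0.35, adjusted p = 0.0076). Germ cell genes fell in the same comparison (10 of 11 below 0, median -0.66, 8 called lower). On the scale that holds their mean equal, the median of the 33 was 0.38 and that of all genes 0.67, with 11 of the 33 called higher and none lower, beside 52.3% and 4.90% of all genes tested. With Nanos2, which also marks undifferentiated spermatogonia, left out of that mean, 6 were higher and 3 lower, beside 38.0% and 6.42%. The WT comparison and the null genotype comparison share the WT THY1+ libraries, and this one shares the null THY1+ libraries with the latter.

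**Figure D3:**
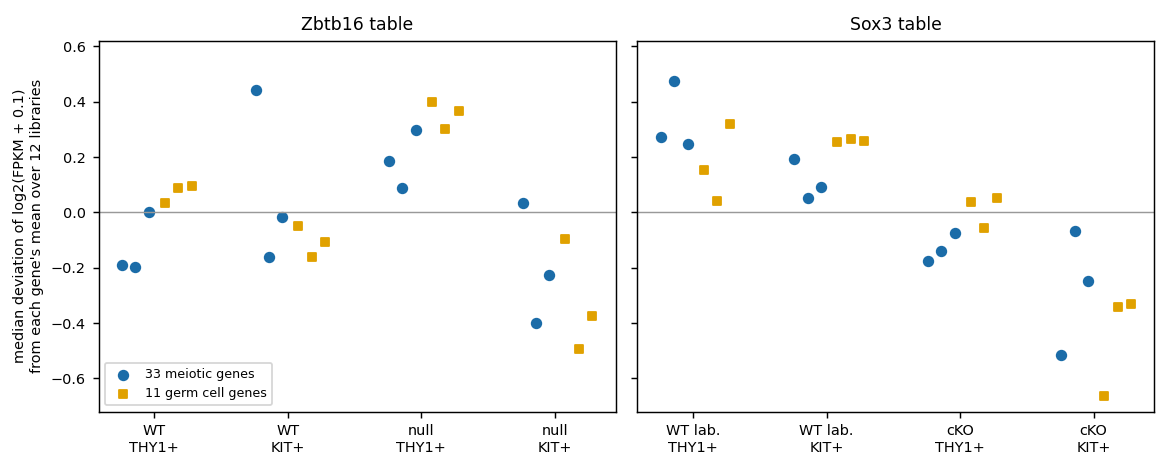
Median over the 33 meiotic genes (circles) and over the 11 germ cell genes (squares) of the deviation of log2(FPKM + 0.1) from each gene's mean over the 12 libraries of its table, with 1 point for each library. WT KIT+ replicate 1 stands at 0.44, apart from -0.16 and -0.015 in its group, and cKO KIT+ replicate 1 is the lowest circle at -0.51.

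Loss of Sox3 went with lower levels of the synaptonemal complex genes. Averaged over both fractions, a comparison that is the same whichever way the 2 WT groups are labelled, 5 of the 33 fell and none rose, beside 2.83% of all 21212 genes tested that were called lower. Of the 5 central region genes, Syce3, Tex12 and Syce2 were called, with Sycp3 of the axis and Spata22 of strand exchange. Syce1 and Sycp1 passed the adjusted p (0.0031 and 0.0045) with 1.48-fold and 1.41-fold differences. The median of the 33 was -0.43, against 0.025 over all genes, and 30 lay below 0.

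Syce3 (ENSMUSG00000078938, chr15:89390174-89410503), a central element protein, was at 28.02, 38.3 and 25.5 FPKM in WT labelled THY1+, 23.6, 26.9 and 17.98 in WT labelled KIT+, 16.3, 17.04 and 13.6 in cKO THY1+ uSPG and 11.9, 12.8 and 15.2 in cKO KIT+ dSPG. Its averaged log2 fold change was -0.85 ± 0.13 (adjusted p = 0.0029), and all 6 cKO libraries lay below all 6 WT libraries. Tex12 (ENSMUSG00000032065, chr9:50556819-50561325), which pairs with SYCE2 in central element fibres, was at 70.7, 71.7 and 58.03, 62.01, 49.8 and 47.98, 36.6, 37.4 and 41.4 and 30, 44.9 and 33.8 FPKM in the same order (-0.68 ± 0.11, adjusted p = 0.0033), also without overlap. Spata22 (ENSMUSG00000069825) was at 1.85, 2.24 and 1.57, 1.61, 1.69 and 1.69, 1.06, 1.29 and 1.32 and 0.78, 1.13 and 1.13 FPKM (-0.63 ± 0.14, adjusted p = 0.0095), again with each cKO library below each WT library.

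Syce2 (ENSMUSG00000003824) was at 70.9, 83.5 and 61.2, 52.6, 50.6 and 37.6, 33.1, 31.1 and 33.2 and 36.6, 44.3 and 37.7 FPKM (-0.68 ± 0.10, adjusted p = 0.003). Sycp3 (ENSMUSG00000020059) was at 167, 162 and 143, 119, 96.5 and 101, 70.5, 77.9 and 73.9 and 73.2, 116 and 101 FPKM (-0.61 ± 0.11, adjusted p = 0.0043). In these 2 genes cKO KIT+ libraries overlapped the WT libraries labelled KIT+. Over the 33, 6 genes had all 6 cKO libraries below all 6 WT libraries (Spata22, Stag3, Syce1, Syce3, Tex12 and Zcwpw1), beside 2.79% of all genes tested.

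The crossover genes moved less in this average. Their median over 7 genes was -0.25, with Mlh3 at 0.025 ± 0.073, Msh5 at -0.052 ± 0.13 and none called, while the median of the central region was -0.68. Ccnb1ip1 (-0.56 ± 0.11, adjusted p = 0.0062) and Zcwpw1 (-0.55 ± 0.09, adjusted p = 0.0034) passed the adjusted p below 1.5-fold. The difference between roles was not tested.

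Lists of germ cells and of other cells also differed between cKO and WT in this average. Germ cell genes were lower in cKO for 10 of 11 (median -0.37, 1 call) and Leydig cell genes higher for 8 of 8 (median 0.75, 4 calls). On the germ-centred scale none of the 33 was called by limma, beside 0.453% of all genes tested called lower and 28.3% higher. The median there was -0.064 against 0.39 over all genes. On a scale centred on each library's median 10 fell, beside 4.64% of all genes tested. In replicates 2 and 3 alone, which are the shallower libraries, none was called, beside 0.655% of all genes tested called lower. That fit also has fewer libraries in each group, and its median was -0.34. Without cKO KIT+ replicate 1, in which the Leydig cell list reached 5274 FPKM, 3 fell. Without cKO KIT+ replicate 2, 10 fell, and without cKO THY1+ replicate 3, 8 fell. Shares of all genes tested are not given for fits without 1 library, so these counts describe the 33 alone. The Sycp3 call was lost without cKO KIT+ replicate 1 (-0.52) or WT labelled KIT+ replicate 1, and the Spata22 call without cKO KIT+ replicate 1 (-0.55), cKO THY1+ replicate 1 or WT labelled THY1+ replicate 2. The part of these lists and of depth in the result was not tested.

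Each cKO group was then set against the WT group with like levels of Thy1 and Kit. Against the WT libraries labelled THY1+, whose Kit is high and Thy1 low, cKO KIT+ dSPG had 17 of the 33 called lower and none higher, beside 4.57% of all genes tested called lower. All 33 log2 fold changes were below 0, with a median of -0.67, against 0.024 over all genes. In 21 genes every cKO library lay below every WT library, beside 17.2%. All 5 central region genes were called, from -1.18 ± 0.18 for Syce3 to -0.69 ± 0.13 for Sycp1. Other calls were Sycp3, Hormad1 and Hormad2 of the axis, Smc1b and Stag3 of the cohesins, and Spo11 and Mei4 of break formation. Zcwpw1, the reader of PRDM9 marks grouped with break formation, was a call as well. So were Spata22 and Psmc3ip of strand exchange, and Ccnb1ip1 and Rnf212 of crossover formation. Terb1, found by identifier, was called too (-0.77 ± 0.24).

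Rnf212, a RING protein that marks future crossovers, had levels of 10.6, 9.19 and 8.73 FPKM in WT labelled THY1+ and 4.55, 6.16 and 6.16 in cKO KIT+ dSPG (-0.75 ± 0.15, adjusted p = 0.006). Mei4 was at 5.45, 6.03 and 6.19 and 2.77, 3.81 and 3.86 (-0.75 ± 0.16, adjusted p = 0.007). Neither gene's groups overlapped. Prdm9 (2.65, 5.54 and 4.34 against 1.51, 4.02 and 1.82) and Meioc (15.8, 35.8 and 17.5 against 8.25, 20.03 and 9.41) overlapped between the groups and were no calls. Mlh3 (-0.022 ± 0.10) and Sun1 (-0.0029 ± 0.12), which links telomeres to the cytoskeleton through the nuclear envelope, lay near 0. The Leydig cell list was at 2585 to 5274 FPKM in cKO KIT+ dSPG and 1339 to 2165 in the WT libraries labelled THY1+, and the germ cell list at 828 to 1126 and 1372 to 1552. With germ cell genes held equal, 1 of the 33 was called lower (Syce3), beside 0.453% of all genes tested, and in replicates 2 and 3 alone 1 was (Syce1), beside 0.938%, with medians of -0.18 and -0.53. Leaving out cKO KIT+ replicate 1 gave 11 calls among the 33, with no share of all genes given for that fit. Of the 17 calls, 9 were kept in all 6 fits without 1 library. Spo11 and Terb1 were lost in 5 of 6 (kept without cKO KIT+ replicate 2). Without cKO KIT+ replicate 1 the calls of Sycp3, Zcwpw1, Stag3, Smc1b and Hormad1 were lost, and without WT labelled THY1+ replicate 2 those of Spata22, Smc1b, Hormad1 and Psmc3ip. WT labelled THY1+ replicate 1 also decided Hormad1 and Psmc3ip, WT labelled THY1+ replicate 3 Stag3, and cKO KIT+ replicate 2 Psmc3ip. The part of these lists in the result was not tested.

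**Figure D4:**
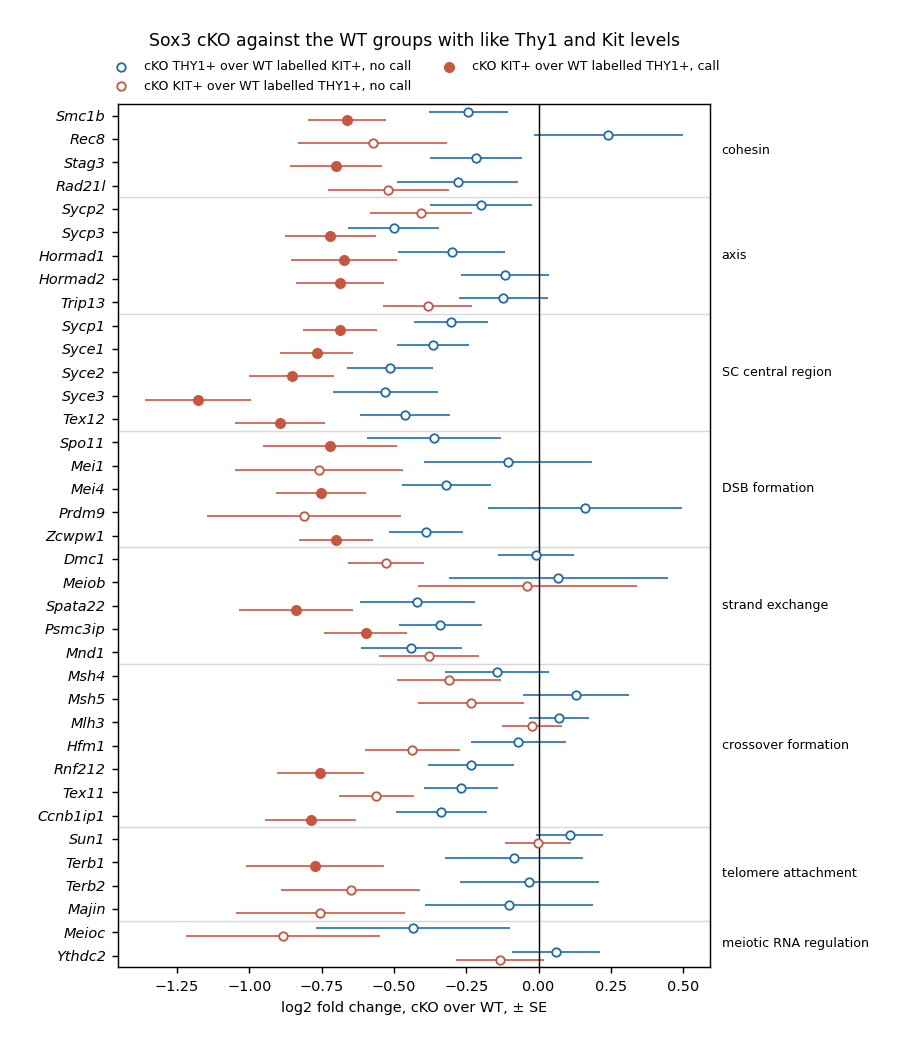
Log2 fold change of each of the 37 genes in Sox3 cKO over the WT group with like Thy1 and Kit levels (x axis, bars are SE of the fit, 3 libraries per group): cKO THY1+ over WT labelled KIT+ (blue) and cKO KIT+ over WT labelled THY1+ (red). Filled points are calls, 18 in red with Terb1 and none in blue, and the central region genes lie left of 0 in both.

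Against the WT libraries labelled KIT+, whose Thy1 is high, cKO THY1+ uSPG had none of the 33 called by limma, beside 0.0707% of all genes tested called either way, and 9 at an unadjusted p under 0.05 (27.3%, beside 13.2% of all genes). The median was -0.24, against 0.0073 over all genes, and 26 lay below 0. Syce3 was at 23.6, 26.9 and 17.98 FPKM in WT and 16.3, 17.04 and 13.6 in cKO (-0.53 ± 0.18, 95% interval -0.89 to -0.17, adjusted p = 0.29). Syce2 (-0.51 ± 0.15) and Sycp3 (-0.50 ± 0.16) were of like size. In this pair of groups the Leydig list was at 73.3 to 120.8 and 85.7 to 122.8 FPKM and the macrophage list at 1202 to 1487 and 1219 to 1345, so their ranges overlapped. The germ cell list was lower in cKO for 11 of 11 genes (median -0.19), and with it held equal the median of the 33 was 0.0016.

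Taken as labelled, the Sox3 comparisons mix genotype with the sorting markers. As labelled THY1+, 12 of the 33 fell and none rose, beside 11.3% of all genes tested called lower, with Prdm9 the largest (-1.74 ± 0.34). They were Sycp1, Sycp3, Syce1, Syce2, Syce3, Tex12, Hormad1, Mei1, Mei4, Prdm9, Tex11 and Ccnb1ip1, with Terb1 and Meioc by identifier. The Terb1 call was lost in all 6 fits without 1 library, Hormad1 in 4 (kept without WT labelled THY1+ replicate 3 or cKO THY1+ replicate 3), Sycp1 without WT labelled THY1+ replicate 2 or cKO THY1+ replicate 2, and Tex11 without the former. As labelled KIT+, 9 fell and 1 (Prdm9, 1.09 ± 0.34) rose, beside 12.6% and 12.4%. Those that fell were Syce3, Stag3, Rad21l, Hormad2, Spo11, Msh4, Spata22, Rnf212 and Mnd1, with Terb2 by identifier. The Terb2 call was lost in 5 of 6 fits (kept without cKO KIT+ replicate 2), Hormad2 in 4 (kept without that library or WT labelled KIT+ replicate 2) and Prdm9 in 4 (kept without cKO KIT+ replicate 1 or 3). Spata22 was lost without WT labelled KIT+ replicate 2, Stag3 without WT labelled KIT+ replicate 3, and both without cKO KIT+ replicate 1. With germ cell genes held equal the split as labelled KIT+ was 0 fallen and 7 risen, beside 4.34% and 52.1% of all genes tested. With Nanos2 left out of that mean it was 2 fallen and 5 risen, beside 4.98% and 41.4%. The macrophage list differed by a median of 9.12 and -7.85 on the log2 scale in these 2 comparisons, and genotype and sorted fraction cannot be told apart in them.

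Within cKO mice, 5 of the 33 fell from THY1+ uSPG to KIT+ dSPG and none rose, beside 12.2% of all genes tested called lower. They were Rnf212 (-1.01 ± 0.15), Spo11 (-0.95 ± 0.23), Rad21l (-0.71 ± 0.21), Msh5 (-0.68 ± 0.18) and Mnd1 (-0.61 ± 0.17), and Meioc, found by identifier, rose (1.03 ± 0.33), a call lost in 4 of 6 fits without 1 library (kept without cKO KIT+ replicate 1 or 3). The Rad21l call was also lost in 4 of 6 (kept without cKO THY1+ replicate 1 or cKO KIT+ replicate 2), the Msh5 call without cKO THY1+ replicate 3 or cKO KIT+ replicate 1, and the Mnd1 call without cKO THY1+ replicate 3 or cKO KIT+ replicate 2. Without cKO THY1+ replicate 3, 2 of the 33 fell, with no share of all genes given for that fit. With germ cell genes held equal, 7 rose and none fell, beside 34.4% and 5.59% of all genes tested. With Nanos2 left out of that mean, 5 rose and 1 fell, beside 22.9% and 6.93%. Prdm9 was at 1.04, 1.096 and 1.27 FPKM in cKO THY1+ uSPG and 1.51, 4.02 and 1.82 in cKO KIT+ dSPG, without overlap but no call (0.93 ± 0.34, adjusted p = 0.058). Its highest library, replicate 2, was also the highest for 25 of the 33 genes in that group.

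Between the WT libraries of the Sox3 table, those labelled KIT+ had 1 gene called higher (Mnd1, 0.67 ± 0.17) and 3 called lower than those labelled THY1+ (Prdm9 -1.90 ± 0.34, Mei1 -1.08 ± 0.29 and Syce2 -0.62 ± 0.15), beside 13.1% and 6.53% of all genes tested. Meioc was lower as well (-1.48 ± 0.33). Without WT labelled THY1+ replicate 2, 2 of the 33 were called, 1 in each direction, with no share of all genes given for that fit. The Mei1 call was lost in 4 of 6 fits without 1 library (kept without WT labelled THY1+ replicate 1 or labelled KIT+ replicate 3), the Syce2 call without labelled THY1+ replicate 2 or labelled KIT+ replicate 3, and the Mnd1 call without labelled THY1+ replicate 2 or labelled KIT+ replicate 1. With germ cell genes held equal, 11 were lower and none higher, beside 13.1% and 8.75%. With Nanos2 left out of that mean, 4 were lower and 1 higher, beside 6.14% and 11.9%. Prdm9 was at 2.65, 5.54 and 4.34 FPKM in the libraries labelled THY1+ and 1.01, 0.949 and 1.04 in those labelled KIT+. In each of the 4 pairs of sorted groups over the 2 tables, the libraries with high Kit had the higher Prdm9 and did not overlap those with high Thy1.

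**Figure D5:**
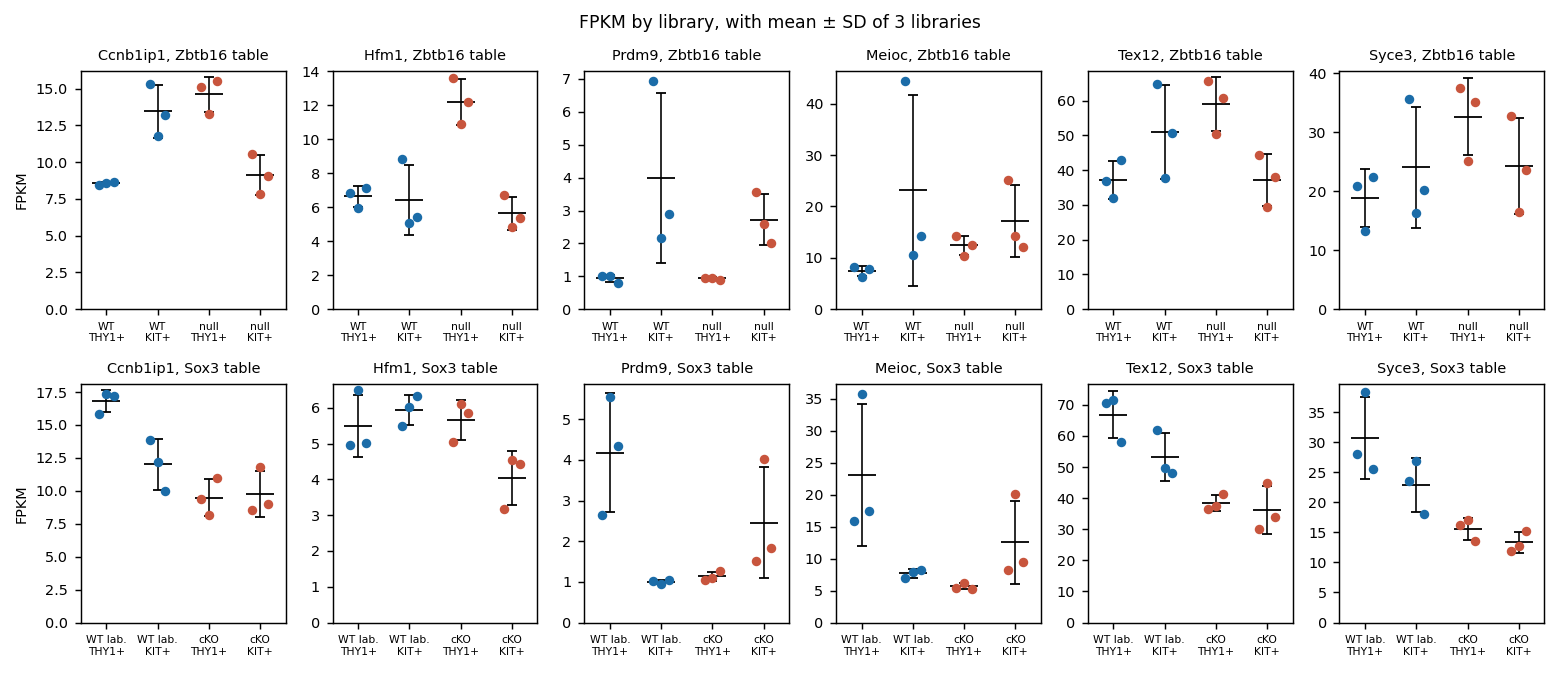
FPKM of 6 genes by library (points, 3 per group), with mean and SD (bars), in the Zbtb16 table (top) and the Sox3 table (bottom), WT in blue and mutants in red, each axis starting at 0. Ccnb1ip1 and Hfm1 are higher in null than in WT THY1+ uSPG, Prdm9 is at about 1 FPKM wherever Thy1 is high, and Tex12 and Syce3 have all cKO points below all WT points of the Sox3 table.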

How the data were processed

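The authors prepared stranded libraries after ribosomal RNA depletion, aligned single reads to mm10 with Novoalign, allowing reads with several matches, and deposited FPKM per gene from USeq. Paralogs may therefore share reads, and whole counts were not used. The labels do not say that replicates were separate beyond their pooled isolations, so p-values measure the spread between these libraries.

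Values were tested as log2(FPKM + 0.1) with limma 3.58.1 in R 4.3.3 (a mean per group, trended and robust variance), among genes with a mean of at least 0.1 FPKM over the 12 libraries of a table. The pseudocount makes fold changes of low genes too small. All 4 groups of a table shared 1 fit. Calls needed an adjusted p (Benjamini-Hochberg) of at most 0.05 and 1.5-fold. Depth was estimated from the steps between low values. The scripts were tested on simulated data. All members could be named by role: each member that was a call and, of the others, those with the highest FPKM of their role, with further members chosen after their values were seen. From each other list at most 3 calls with the largest change per direction could be named, with Thy1, Kit, Zbtb16 and Sox3 as checks. The members and lists were chosen with earlier results of these data known. Alternatives were other pseudocounts, filters, centrings, sets of libraries and a replicate block.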

Additional observations from a re-analysis of the deposited data

Results flagged for a closer look

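The change of Ccnb1ip1 in Zbtb16 null cells differed between the fractions by the interaction term of the fit: the change in KIT+ dSPG less that in THY1+ uSPG was -1.31 on the log2 scale (limma, adjusted p = 0.041), with a rise in THY1+ uSPG (0.76) and a value of -0.55 in KIT+ dSPG that was no call. Each group has 3 libraries, so no single library was tested for standing apart.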

How the results depend on the processing

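Counts are of the 33 genes found by name, and medians are of their log2 fold changes.

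Holding the mean of the germ cell genes equal moved the most results, and it moves every gene alike: the median of all genes went from -0.027 to -0.34 for null against WT in THY1+ uSPG, and from 0.025 to 0.39 for the averaged Sox3 comparison. On that scale, and with Nanos2 left out of it (chosen after seeing the data), null against WT in THY1+ uSPG had 1 call on both, Msh5 lower in place of 2 calls higher, with medians of -0.021 and -0.0095. For KIT+ over THY1+ in null the medians were 0.38 and 0.20, with Hormad2 at 0.043, Tex12 at 0.052 and Ccnb1ip1 at 0.047 on the first. For KIT+ over THY1+ in WT the first gave 12 calls and a median of 0.49. The interaction medians were -0.080 and -0.041, and the second gave -0.030 for null against WT in KIT+ dSPG. The averaged Sox3 comparison had 0 calls on both, with medians of -0.064 and -0.0082. As labelled KIT+ the medians were 0.35 and 0.21, with Hormad2 at 0.13, Spata22 at 0.056, Msh4 at 0.042, Terb2 at 0.033 and Stag3 at 0.14 on the first and 0.0065 on the second, and as labelled THY1+ the second gave -0.24. Within cKO the medians were 0.40 and 0.24, and between the WT libraries the first gave 11 calls and -0.45. For cKO THY1+ against WT labelled KIT+ they were 0.0016 and 0.023. For cKO KIT+ against WT labelled THY1+ there was 1 call on both, with medians of -0.18 and -0.090.

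Centring on the library median gave 0 calls for the interaction, 10 for the averaged Sox3 comparison and 7 between the WT libraries. Of all genes tested, 0.0223%, 10.2% and 20.1% were called either way in these fits. Fitting the libraries of the contrast alone gave 5 calls for null against WT in THY1+ uSPG, beside 2.99% of all genes tested. A pseudocount of 1 gave 3 within cKO, beside 16.3%. Replicates 2 and 3 alone gave 0 calls for the averaged Sox3 comparison, 5 as labelled KIT+ (median -0.23), 2 within cKO, and 1 for cKO KIT+ against WT labelled THY1+ (median -0.53). In the same order, 2.81%, 15.5%, 11.7% and 4.65% of all genes tested were called either way. The cause of these differences was not tested.

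Leaving out each replicate in turn, the calls ranged from 1 to 3 for null against WT in THY1+ uSPG, 0 to 0 in KIT+ dSPG, 3 to 11 for KIT+ over THY1+ in WT, 9 to 14 in null, 0 to 2 for the interaction, 3 to 10 for the averaged Sox3 comparison, 9 to 15 as labelled THY1+, 7 to 14 as labelled KIT+, 2 to 6 within cKO, 2 to 6 between the WT libraries, 0 to 0 for cKO THY1+ against WT labelled KIT+ and 11 to 20 for cKO KIT+ against WT labelled THY1+. Every median kept its sign in these fits, the one nearest to 0 being -0.013 within cKO.

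The replicate block gave 8 calls for null against WT in THY1+ uSPG, all higher, beside 4.36% of all genes tested called higher. They were Ccnb1ip1, Hfm1, Hormad1, Rad21l, Spata22, Syce3, Sycp3 and Tex12, and so not of crossover formation alone. For the interaction the block gave 12, all lower, beside 3.26% of all genes tested called lower. It moved no other count by over 1.5 times. The numbers pair no libraries by the labels: deviations of same-numbered libraries correlated at -0.028 to 0.52 in the Zbtb16 table, where 11 of 12 libraries correlated best with their own number, and at -0.12 to 0.35 in the Sox3 table, where 9 of 12 did.

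Over the named calls, 1113 of 1401 values kept their direction and side of the threshold, 279 kept the direction only and 9 reversed. Depth limits genes with few reads, such as Meiob (12.7 estimated reads in the lowest Sox3 library and 27.5 in the lowest Zbtb16 library).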

Other observations

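Other meiotic genes, a list of 30 of which 26 were tested, had 22 above 0 and a median log2 fold change of 0.32 in null against WT THY1+ uSPG, with no call by limma and 8 at an unadjusted p under 0.05 (30.8%, beside 23.8% of all genes). In WT KIT+ over THY1+ the same list had 4 calls higher and 1 lower, beside 7.21% and 14.0% of all genes tested. Stra8, the retinoic acid target needed for meiotic entry, rose (1.11 ± 0.21, SE), as did Ccna1, the germ cell cyclin A (1.03 ± 0.26), while Hsf2bp fell (-0.64 ± 0.15). In the averaged Sox3 comparison 24 of 26 lay below 0 (median -0.28). Calls were 3 lower, with Stra8 (-0.88) among them, and 1 higher, beside 2.83% and 7.49% of all genes tested.

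General homologous recombination genes, which also act in dividing cells, had no call in the 3 genotype comparisons given here (both null fractions and the averaged Sox3 comparison, by limma). All 20 lay below 0 in null against WT KIT+ dSPG (median -0.29, 12 at an unadjusted p under 0.05, beside 17.3% of all genes), and 14 of 20 lay above 0 in THY1+ uSPG (median 0.054). The 9 mitotic cohesin genes had medians of 0.028 and -0.16 in these 2 comparisons and 0.096 in the averaged Sox3 comparison, where the 4 meiotic cohesin genes had -0.43. The difference between these lists was not tested.

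From the list of 20 late spermatocyte and spermatid genes, of which 17 were found, calls in null THY1+ uSPG are named by size of change. Ldhc, the germ cell lactate dehydrogenase, rose (1.60 ± 0.20), as did Piwil1 (1.05 ± 0.12), and Tnp1, a nuclear protein of spermatids, fell (-1.42 ± 0.24). The list summed to 62.4 to 77.7 FPKM in WT THY1+ uSPG and 77.5 to 88.1 in null. The median of its genes' means was 1.97 FPKM in WT and 1.70 in null.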
